A study of Mus musculus with 6 samples.

Results

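The Ras guanine nucleotide exchange factors are 8 genes, Sos1, Sos2, Rasgrf1, Rasgrf2 and Rasgrp1 to Rasgrp4, of 23997 gene symbols measured by RNAseq in gastrocnemius, the large mixed-fibre muscle of the calf. The 8 genes were chosen by gene family, with their FPKM in these mice already known, so their differences between genotypes are given as a description. The study asked what an activating Hras mutation does to skeletal muscle transcription in a mouse model of Costello syndrome. HrasG12V mice (Caggs-Cre+/HrasG12V/+) were compared with WT littermates (Caggs-Cre-/HrasflG12V/+, genotype given as Hras+/+), all untreated and 21 days old, with 3 mice per genotype and 1 library per mouse. Cre from the broadly active Caggs transgene excises a WT cassette so that HrasG12V is expressed from the endogenous Hras promoter, which is not limited to muscle fibres. The WT mice carry the unrecombined floxed allele and no Cre, so the Cre transgene and the mutation cannot be told apart. Both breeding lines were on a mixed background of several inbred strains, and the sex and litter of each mouse are not given in the labels.

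Ras proteins are switches that are off with bound GDP and on with bound GTP, and an exchange factor opens the nucleotide pocket so that GTP can enter. Sos1 and Sos2 are brought to the membrane by adaptors such as Grb2 when a receptor tyrosine kinase is active. Rasgrf1 and Rasgrf2 respond to calcium and calmodulin, and RasGRP proteins such as Rasgrp1 and Rasgrp3 bind diacylglycerol. Of the RasGRP genes, Rasgrp1 is best known from T cells, Rasgrp2 from platelets and lymphocytes, Rasgrp3 from B cells and endothelium, and Rasgrp4 from mast cells and neutrophils. The G12V protein hydrolyses GTP poorly, so it stays loaded longer once an exchange factor has acted.

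The positions are those of the GRCm38 genome as annotated in GENCODE vM21, in which no member shares exon bases with a gene on its own strand. The Sos genes are Sos1 at chr17:80393751-80480453 and Sos2 at chr12:69583762-69681852, both on the minus strand. The Rasgrf genes are Rasgrf1 at chr9:89909908-90026977 on the plus strand and Rasgrf2 at chr13:91880400-92131656 on the minus strand. Rasgrp1 lies at chr2:117279993-117343001 on the minus strand, and Rasgrp2 at chr19:6399340-6415216, Rasgrp3 at chr17:75435896-75529054 and Rasgrp4 at chr7:29134851-29153961 are on the plus strand. Rasgrp4 shares 978 exon bases, 15.4% of its exon sequence, with Fam98c on the opposite strand and 181 (2.84%) with the antisense gene Gm16282, and Rasgrp2 shares 265 bases (2.14%) with Gm14965. The library kit kept strand, but the strand setting used for quantification is not given in the sources used here, so the Rasgrp4 values carry that uncertainty.

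The promoters of the 4 genes that were lower in every HrasG12V mouse than in every WT mouse, as were 10.4% of the 13359 genes tested (Rasgrp3, with both its listed starts, Sos1, Sos2 and Rasgrf2) and of Rasgrp1, whose level set apart 2 HrasG12V mice, are shown to compare their sequence types. Each run is 300 bases from RefSeq on GRCm38.p6, 250 before and 50 after a transcription start, written 5′ to 3′ on the strand of the gene. Capitals mark E-boxes (CANNTG), ETS motifs (CCGGAA) and GC boxes (GGGCGG), searched on both strands, and no match of one motif overlapped a match of another.
Rasgrp3 first start, chr17:75435655-75435954, plus strand: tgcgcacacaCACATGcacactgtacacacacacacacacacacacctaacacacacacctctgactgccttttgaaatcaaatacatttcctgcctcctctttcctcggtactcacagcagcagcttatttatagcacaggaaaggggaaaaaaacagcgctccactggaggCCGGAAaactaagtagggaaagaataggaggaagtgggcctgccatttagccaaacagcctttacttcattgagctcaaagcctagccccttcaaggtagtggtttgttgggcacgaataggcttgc
Rasgrp3 second start, chr17:75465288-75465587, plus strand: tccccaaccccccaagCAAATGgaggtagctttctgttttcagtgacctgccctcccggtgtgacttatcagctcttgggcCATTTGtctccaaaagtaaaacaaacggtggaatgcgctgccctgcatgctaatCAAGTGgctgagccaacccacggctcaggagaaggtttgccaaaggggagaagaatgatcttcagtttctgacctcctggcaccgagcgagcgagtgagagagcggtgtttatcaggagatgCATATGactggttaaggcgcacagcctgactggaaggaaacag
Sos1, chr17:80480404-80480703, minus strand: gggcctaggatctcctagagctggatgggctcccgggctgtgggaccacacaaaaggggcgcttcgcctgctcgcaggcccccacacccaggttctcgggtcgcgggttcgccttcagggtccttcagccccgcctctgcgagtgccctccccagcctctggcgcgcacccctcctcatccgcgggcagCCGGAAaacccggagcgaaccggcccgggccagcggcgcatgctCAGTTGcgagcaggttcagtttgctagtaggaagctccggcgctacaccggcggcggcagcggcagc
Sos2, chr12:69681803-69682102, minus strand: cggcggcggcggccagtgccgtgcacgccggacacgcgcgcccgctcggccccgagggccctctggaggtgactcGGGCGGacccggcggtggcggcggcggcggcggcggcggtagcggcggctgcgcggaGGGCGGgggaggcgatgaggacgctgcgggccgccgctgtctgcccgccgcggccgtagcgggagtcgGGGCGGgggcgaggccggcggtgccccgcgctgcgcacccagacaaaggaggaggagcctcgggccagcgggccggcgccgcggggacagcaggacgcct
Rasgrf2, chr13:92131779-92132078, minus strand: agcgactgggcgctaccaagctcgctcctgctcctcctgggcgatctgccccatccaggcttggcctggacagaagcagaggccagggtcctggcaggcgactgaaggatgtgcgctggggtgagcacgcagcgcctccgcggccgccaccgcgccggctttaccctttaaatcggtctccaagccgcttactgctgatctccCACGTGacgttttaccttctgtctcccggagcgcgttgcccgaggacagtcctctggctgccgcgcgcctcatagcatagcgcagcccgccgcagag
Rasgrp1, chr2:117342828-117343127, minus strand: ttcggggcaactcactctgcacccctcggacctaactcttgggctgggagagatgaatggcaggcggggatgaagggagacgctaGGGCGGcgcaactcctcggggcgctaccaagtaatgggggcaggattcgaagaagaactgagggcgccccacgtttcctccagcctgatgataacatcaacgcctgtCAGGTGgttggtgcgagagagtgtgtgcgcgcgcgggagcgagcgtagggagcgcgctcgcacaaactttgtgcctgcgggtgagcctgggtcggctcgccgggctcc

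These windows fell into GC-rich and GC-moderate types. The Sos2 window was 82.7% G and C, higher than 99.6% of the 32851 mouse promoters of that length, with 3 GC boxes, no E-box and no ETS motif. Sos1 (70.0% G and C), Rasgrf2 (66.0%) and Rasgrp1 (63.7%) were also above the median of all promoters, 52.7%. The Rasgrp3 windows were 48.3% and 52.7% G and C, without a GC box, and the second start alone held 4 E-boxes, a motif of basic helix-loop-helix factors. Over all promoters an E-box was found in 72.3%, an ETS motif in 14.9% and a GC box in 35.7%. The RUNX motif TGTGGT (16.8% of all promoters) matched in Sos1 only, TATAAA (13.6%) in the first Rasgrp3 window only, and the MEF2 consensus (0.557%) in none of the 9 windows listed for 7 of the 8 members. The 4 genes lower in HrasG12V mice therefore shared none of the 3 marked motifs across all of their windows.

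In WT gastrocnemius the exchange factors covered a wide range of levels, compared here as FPKM, which is per length of transcript. Rasgrp3 was the most abundant at 21.9 ± 0.858 FPKM (mean ± SD, n = 3), with 20.9 to 22.6 FPKM per mouse. Sos2 followed at 18.4 ± 1.81 FPKM, with 16.8 to 20.4 FPKM, so the ranges of the first and second gene did not overlap. Rasgrp2 (9.25 ± 0.958 FPKM), Sos1 (6.13 ± 0.203 FPKM) and Rasgrf2 (2.68 ± 0.0844 FPKM) came next, and no neighbours among them overlapped. Rasgrp4 was at 0.692 ± 0.0519 FPKM and Rasgrp1 at 0.0797 ± 0.0264 FPKM. Rasgrf1, the neuronal member, was near or at 0 throughout. Its FPKM was 0.00462, 0 and 0.0196 in WT mice 2277, 2280 and 2281 and 0, 0.00633 and 0.0271 in HrasG12V mice 2276, 2278 and 2279, so no fold is given for it.

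**Figure D1:**
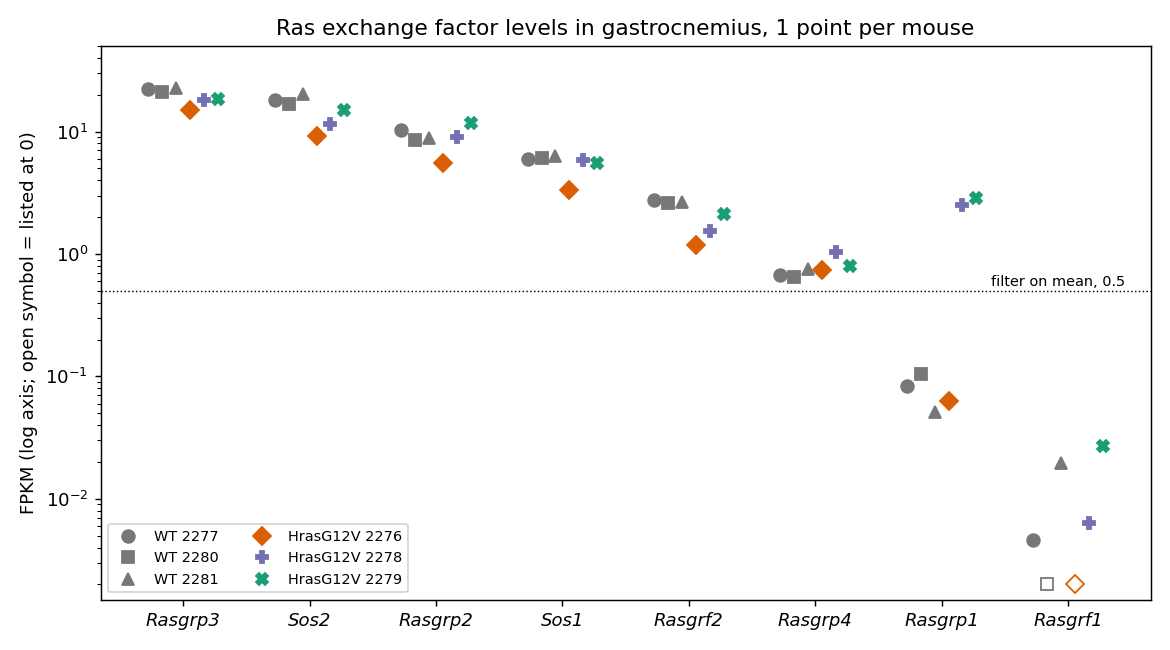
FPKM of the 8 exchange factors on a log axis, 1 point per mouse, with the genes ordered by WT mean, WT mice in grey and HrasG12V mice in colour, and a dotted line at the filter of 0.5 FPKM on the mean. Rasgrp3 and Sos2 head the order, Rasgrf1 is at or near 0 in all mice (open symbols are values listed at 0), and Rasgrp1 is above 2 FPKM only in HrasG12V mice 2278 and 2279.

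The libraries set the frame for the comparison. Pearson's r of the log2 profiles was 0.918 to 0.928 between WT mice and 0.844 to 0.878 between HrasG12V mice, and mouse 2276 was closer to WT mice (0.893 to 0.903) than to the other HrasG12V mice (0.844 and 0.852). Its 10 most abundant genes held 29.9% of the summed FPKM, against 18.6% to 24.2% elsewhere, and that sum was 814013 FPKM against 413020 to 547122 FPKM, while the median FPKM of tested genes was 6.39 to 6.64 in all 6 libraries. The fast-fibre muscle genes Pvalb and Mylpf stood at 10760 FPKM or more in every library. Acta1 and Myh4 were listed at 0 in all 6 and Ckm in 5, although muscle fibres make all of them in abundance, so a listed 0 can be a failed estimate and no sum over the muscle list is used.

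Sos1, Sos2, Rasgrf2 and Rasgrp3, 4 of the 8 exchange factors, were lower in every HrasG12V mouse than in every WT mouse. Of the 13359 genes with a mean of at least 0.5 FPKM, 10.4% had that pattern. The same 4 were lower in every HrasG12V mouse after median centring or quantile normalization, but with libraries rescaled to the same total FPKM 0 members were (6.16% of genes), although their log2 fold changes stayed below 0. No member was higher in every HrasG12V mouse, a pattern of 8.11% of genes. Of the 7 members that passed the filter, 5 had a log2 fold change below 0, as did 53.4% of all tested genes, and their median was -0.36 against -0.03. Rasgrp1 passed the filter only through 2 HrasG12V mice, so its difference is part of how it entered the 7. With limma on log2(FPKM + 0.1), 2 of the 7, Sos2 and Rasgrf2, had an unadjusted p below 0.05, where 10.2% of genes did. Both were lower (4.99% of genes) and 0 were higher (5.18% of genes). After Benjamini-Hochberg adjustment over all genes 0 members passed 0.05 in limma, with adjusted p from 0.435 to 0.912, and 0.0599% of genes did. All fold changes are HrasG12V over WT on this scale.

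Sos2, a general receptor-coupled exchange factor, stood at 18.2, 16.8 and 20.4 FPKM in WT mice 2277, 2280 and 2281. The HrasG12V mice 2276, 2278 and 2279 had 9.11, 11.6 and 15.0 FPKM. The groups did not overlap, with mouse 2276 lowest, and the log2 fold change was -0.65 (SE 0.22). Without any 1 mouse it ranged from -0.83 to -0.48, and the unadjusted limma p stayed below 0.05 in 3 of the 6 fits.

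Sos1, its close relative, was nearly level among WT mice at 5.99, 6.04 and 6.36 FPKM. In HrasG12V mice it was 3.31, 5.84 and 5.50 FPKM, so mouse 2276 was far below and the other HrasG12V mice were just under the lowest WT mouse. The log2 fold change was -0.36 (SE 0.23), and -0.11 without mouse 2276. The ratio of Sos2 to Sos1 FPKM was 3.03, 2.78 and 3.20 in WT mice and 2.76, 1.98 and 2.73 in HrasG12V mice. Relative to its WT mean Sos2 was thus lower than Sos1 in each HrasG12V mouse, though the highest HrasG12V ratio was close to the lowest WT ratio.

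Rasgrf2, a calcium-responsive exchange factor that also carries a Rac-activating domain, measured 2.77, 2.60 and 2.68 FPKM in the WT mice. HrasG12V mice had 1.17, 1.55 and 2.12 FPKM. Every HrasG12V mouse was lower, in the same order as for Sos2, and the log2 fold change of -0.74 (SE 0.24) was the lowest among the members. It was -0.54 without mouse 2276 and -0.94 without mouse 2279, with an unadjusted limma p below 0.05 in 2 of the 6 leave-one-out fits.

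Rasgrp3, a diacylglycerol-binding factor of endothelium and B cells, measured 22.1, 20.9 and 22.6 FPKM in the WT mice and 14.8, 18.0 and 18.5 FPKM in the HrasG12V mice. The log2 fold change was -0.36 (SE 0.16), with a range of -0.42 to -0.26 when mice were left out. B cell markers did not share this order. Their sum over 9 genes was 1.95 to 3.01 FPKM in WT mice, below Rasgrp3 itself, and 3.62, 117 and 100 FPKM in HrasG12V mice. The 7 endothelial markers all had log2 fold changes below 0 (median -0.37), as did 53.4% of all tested genes. Emcn was nearly level at -0.03 (SE 0.34), and mouse 2276 had its highest value, 28.9 FPKM against 14.3 to 19.6 FPKM in WT mice. The sum of the 7 markers was 242, 235 and 200 FPKM in WT mice against 177, 168 and 167 FPKM in HrasG12V mice. Rasgrp3 FPKM was 9.13%, 8.91% and 11.3% of the endothelial sum in WT mice and 8.37%, 10.7% and 11.1% in HrasG12V mice, so relative to these markers the genotypes overlapped. The part of endothelium in the Rasgrp3 difference was not tested, and in bulk muscle fewer cells of a type and less RNA per cell cannot be told apart. Of the endothelial list Cdh5, which encodes VE-cadherin, was 1 of 2 with an unadjusted limma p below 0.05 (4.99% of all genes were called lower). Its adjusted p in limma was 0.382. Cdh5 measured 65.1, 67.5 and 59.1 FPKM for WT and 36.6, 43.1 and 41.8 FPKM for HrasG12V mice, and was picked out after its values were seen.

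Rasgrp2, the member known from platelets and lymphocytes, overlapped between genotypes. WT mice had 10.3, 8.58 and 8.83 FPKM and HrasG12V mice 5.49, 9.02 and 11.8 FPKM, so mouse 2276 was the lowest and mouse 2279 the highest of all. The log2 fold change was -0.14 (SE 0.29), and 0.16 without mouse 2276. Its WT level was 266% to 287% of the sum of the 10 T cell markers (3.22 to 3.60 FPKM), and in mouse 2276 it was 195%. In mice 2278 and 2279, whose T cell marker sums were 46.1 and 59.3 FPKM, it was 19.6% and 19.8%. The sum of 7 platelet markers was 11.5 to 13.8 FPKM in WT mice and 20.8, 21.9 and 12.1 FPKM in HrasG12V mice, an order that differed from that of Rasgrp2. Pf4 made up most of that sum, at 8.62 to 10.5 FPKM in WT mice, and of the 4 platelet markers past the filter 3 had log2 fold changes above 0 and 1 below.

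**Figure D2:**
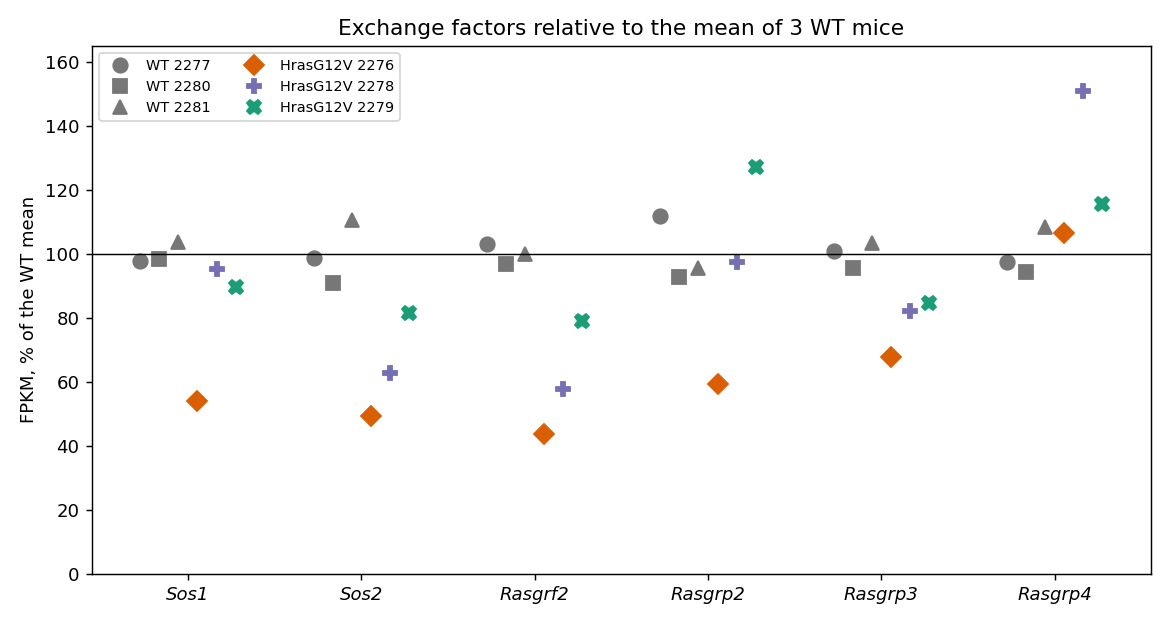
FPKM of 6 exchange factors in each mouse as a percentage of the mean of the 3 WT mice (line at 100), with WT mice in grey and HrasG12V mice in colour. Mouse 2276 is between 43.8% and 67.9% for Sos1, Sos2, Rasgrf2, Rasgrp2 and Rasgrp3, while Rasgrp4 is at 107% or above in all 3 HrasG12V mice.

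The 5 members of highest WT level, Sos1, Sos2, Rasgrf2, Rasgrp2 and Rasgrp3, were together lowest in mouse 2276. Relative to WT means they stood at 43.8% to 67.9% in mouse 2276, at 57.7% to 97.6% in mouse 2278 and at 78.9% to 127% in mouse 2279. In FPKM as deposited all 5 were below every WT mouse in mouse 2276, a position held by 38.0% of tested genes in that library. The median tested gene stood at 102%, 93.7% and 96.1% in the same mice. With libraries rescaled to the same total, the median gene stood at 65.4% in mouse 2276 and the 5 members at 28.0% to 43.4%. On that scale the median gene was at 114% in mouse 2278 and 121% in mouse 2279, and the 5 members ranged from 69.9% to 118% and from 99.4% to 160%, so these levels depended on the scaling. The spread within HrasG12V mice exceeded that within WT mice for 7 of 7 members past the filter and for 86.9% of all tested genes, with a median coefficient of variation over all genes of 29.5% against 9.24%.

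Rasgrp1, the RasGRP of T cells, had the largest log2 fold change and the least even one. It measured 0.0835, 0.104 and 0.0516 FPKM in the WT mice, 0.0631 FPKM in HrasG12V mouse 2276, and 2.50 and 2.89 FPKM in HrasG12V mice 2278 and 2279. Mouse 2276 thus lay within the WT range while the other HrasG12V mice were at 3132% and 3622% of the WT mean. The log2 fold change was 2.60 (SE 1.17), with a limma adjusted p of 0.518. As the WT mean lies below the pseudocount, it depended on that choice and was 1.17 with a pseudocount of 1 and 3.22 with 0.01. Without mouse 2276 it was 3.96, with an adjusted p of 0.00279 (0.00279 to 0.970 over the 17 alternatives run), but that fit drops the HrasG12V mouse that lay in the WT range, so nothing is read from its p. Without mouse 2279 it was 1.87.

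Lymphocyte markers were high in the same mice. The T cell sum was 3.60, 3.22 and 3.22 FPKM in WT mice and 2.82, 46.1 and 59.3 FPKM in HrasG12V mice. All 10 T cell markers and all 9 B cell markers had log2 fold changes above 0, and 7 and 5 of them passed an unadjusted p of 0.05 in limma, where 5.18% of all genes were called higher. Apart from Cd28 and Cd37, their WT means were below 0.5 FPKM. Those markers passed the filter only through HrasG12V mice, so these counts are part of how they entered. Nerve and Schwann cell markers were also highest in mice 2278 and 2279, with sums over 6 genes of 521 and 621 FPKM against 136 to 374 FPKM in the other 4. The T cell receptor component Cd3e, a defining marker, ranged from 0.151 to 0.304 FPKM among WT mice, was 0.225 FPKM for mouse 2276, and reached 6.26 and 9.09 FPKM for mice 2278 and 2279. Of the T cell markers 1 was listed at 0 in 1 WT mouse, and of the B cell markers 1 was at 0 in mouse 2276. Rasgrp1 was 2.32%, 3.23% and 1.60% of the T cell sum in WT mice, 2.23% in mouse 2276, and 5.42% and 4.87% in mice 2278 and 2279. Most of the WT sum was Cd28, at 2.16 to 2.40 FPKM. Against Cd3e alone Rasgrp1 was 34.7%, 68.8% and 17.0% in WT mice, 28.1% in mouse 2276 and 39.9% and 31.7% in mice 2278 and 2279, which overlapped. Against the B cell sum it was 2.64% to 4.06% in WT mice and 1.74%, 2.13% and 2.88% in HrasG12V mice. In a fit with the mean level of the T and B cell markers as a covariate the Rasgrp1 log2 fold change was -0.26 (SE 0.44), and mouse 2276 alone differed from WT by -0.13. Since the covariate is high only in mice 2278 and 2279, that fit in effect sets mouse 2276 against WT, and the part of lymphocytes in the Rasgrp1 values was not tested.

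**Figure D3:**
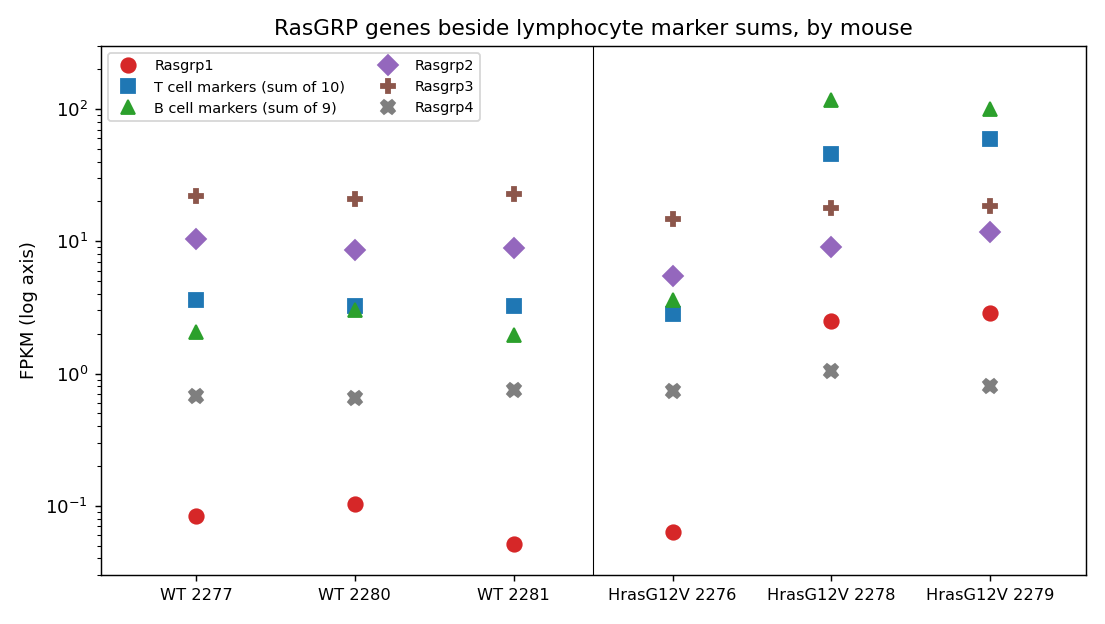
FPKM on a log axis of the 4 RasGRP genes and the summed FPKM of the T cell (10 genes) and B cell (9 genes) marker lists, for each of 6 mice, with WT mice left of the line. Rasgrp1 and both marker sums are high in HrasG12V mice 2278 and 2279 and low in the other 4 mice. Rasgrp4 is highest in the same mice by a small margin (1.04 and 0.800 FPKM), and Rasgrp2 and Rasgrp3 are not.

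Rasgrp4, the RasGRP of mast cells and neutrophils, was low and overlapped between genotypes. It measured 0.674, 0.652 and 0.751 FPKM in the WT mice and 0.739, 1.04 and 0.800 FPKM in HrasG12V mice, with a log2 fold change of 0.27 (SE 0.29), which was 0.14 without mouse 2278 and 0.060 with quantile normalization. The highest value was in mouse 2278, which also had the highest sums of the 9 mast cell markers, 49.7 FPKM against 13.7 to 25.5 FPKM in the other mice, and of the 9 neutrophil markers, 142 FPKM against 2.64 to 67.2 FPKM. Mouse 2279 was high in neutrophil markers (67.2 FPKM) and had the second highest Rasgrp4 value, near the WT range. Its mast cell sum, 23.7 FPKM, lay within the WT range of 18.4 to 25.5 FPKM. Mouse 2276 was above every WT mouse in neutrophil markers (22.4 against 2.64 to 7.57 FPKM), while its Rasgrp4 value was within the WT range. Fam98c, which overlaps Rasgrp4 on the opposite strand, ranged from 7.65 to 9.14 FPKM among WT mice. It was 16.0, 6.50 and 7.91 FPKM in HrasG12V mice, in another order than Rasgrp4.

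The makeup of the exchange factor transcripts differed between genotypes, while their total overlapped only with Rasgrp1 included. The sum over the 8 genes was 60.1, 55.7 and 61.7 FPKM in WT mice and 34.7, 49.5 and 56.7 FPKM in HrasG12V mice. Without Rasgrp1 it was 60.0, 55.6 and 61.6 FPKM in WT mice and 34.7, 47.0 and 53.8 FPKM in HrasG12V mice. These sums without Rasgrp1 did not overlap in FPKM as deposited. The RasGRP genes held 55.2%, 54.4% and 52.3% of the 8-gene sum in WT mice and 60.9%, 61.7% and 60.0% in HrasG12V mice, without overlap. Their summed FPKM did overlap, at 33.2, 30.3 and 32.3 in WT mice and 21.1, 30.5 and 34.0 in HrasG12V mice, as did the separate shares of Sos1, Rasgrp2 and Rasgrp3. Leaving Rasgrp1 out of both parts gave 55.1%, 54.3% and 52.3% against 60.8%, 59.7% and 57.8%, so the separation did not rest on Rasgrp1. The Sos genes held 40.2% to 43.3% in WT mice and 35.2% to 36.2% in HrasG12V mice, and Rasgrf2 4.34% to 4.66% and 3.12% to 3.73%. Rasgrp1 was 0.0836% to 0.187% of the total in WT mice, 0.182% in mouse 2276 and 5.04% and 5.09% in mice 2278 and 2279. Per mouse, Rasgrp3 was 1.21, 1.25 and 1.11 times Sos2 in WT mice and 1.63, 1.55 and 1.23 times in HrasG12V mice, which overlapped. These shares are built from the same values as the genes above and are no separate evidence.

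**Figure D4:**
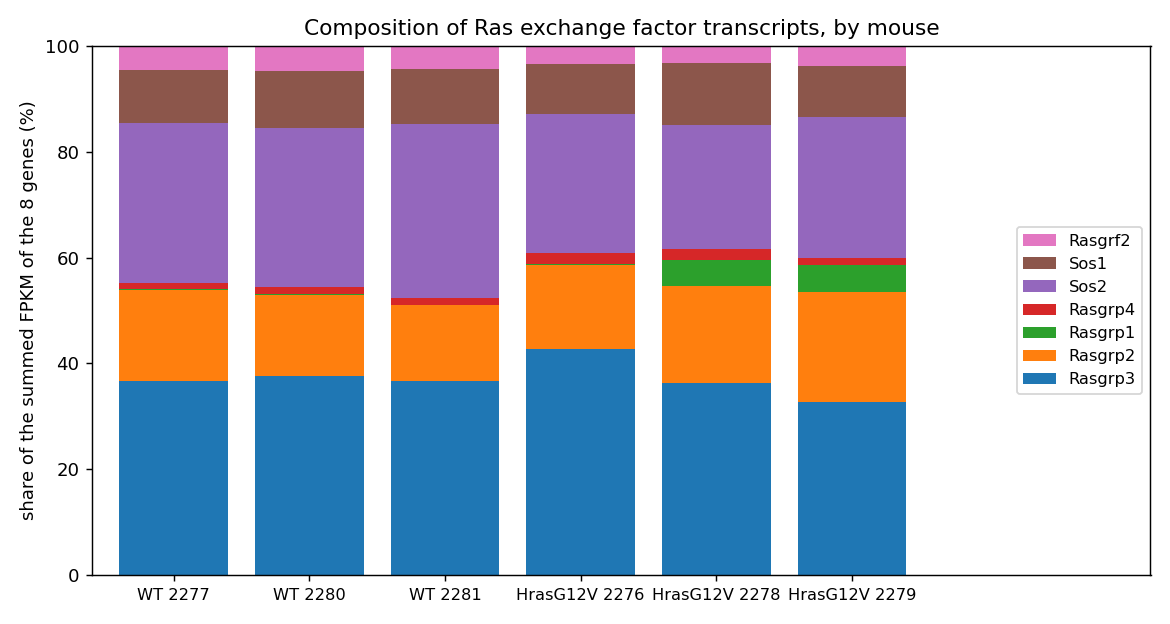
Share of the summed FPKM of the 8 exchange factors held by each gene, as stacked bars from 0 to 100% for each mouse (Rasgrf1 is too low to be drawn). The Sos segments together shrink from 40.2% to 43.3% in WT mice to 35.2% to 36.2% in HrasG12V mice, and a Rasgrp1 segment of about 5% is seen only in mice 2278 and 2279.

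Genes with profiles most like each member over the 6 mice were ranked by the root mean square (RMS) difference of centred log2 values among 12188 genes. The measure describes these 6 libraries, and the members' spread about their own mean ranged from 0.198 for Rasgrp4 to 1.89 for Rasgrp1. Sos1 was closest to Ap5m1 (RMS difference 0.0276), Pogk (0.0406) and the mitochondrial protease gene Yme1l1 (0.0415). Sos2 was closest to the deubiquitinase gene Usp25 (0.0492), Zfp759 (0.0589) and Kalrn (0.0604). Rasgrf2 was closest to Kbtbd12 (0.0472), the endothelial lipid receptor gene S1pr1 (0.0485) and the autophagy gene Rb1cc1 (0.0669). For Rasgrp3 they were Mia3 (0.0306), Cnot7 (0.0391) and the kinase gene Abl2 (0.0413). Rasgrp2 had Setd1b (0.0413), Zfp280d (0.0465) and Khnyn (0.0536), and Rasgrp4 had Coro7 (0.0603), Rarres2 (0.0629) and Bri3bp (0.0664). Rasgrp1, which varied most, had the largest RMS differences, to the T cell transcription factor gene Tcf7 (0.126), the haematopoietic GTPase gene Rac2 (0.130) and Treml2 (0.143). Among the members themselves, Sos2 and Rasgrf2 had the most alike profiles (0.0891), followed by Sos1 and Rasgrp3 (0.161).

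**Figure D5:**
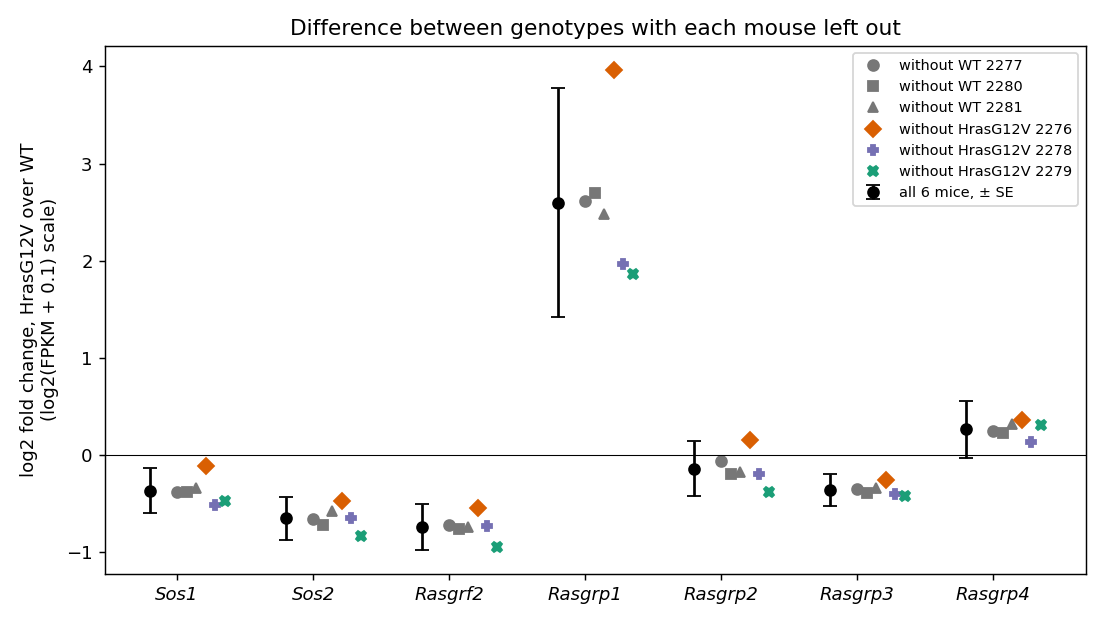
Log2 fold change of HrasG12V over WT on the log2(FPKM + 0.1) scale for the 7 members past the filter, with all 6 mice (black, ± SE) and after removal of single mice (coloured and grey symbols). Sos1, Sos2, Rasgrf2 and Rasgrp3 stay below 0 in every fit, Rasgrp2 turns from -0.14 to 0.16 without mouse 2276, and Rasgrp1 ranges from 1.87 to 3.96.

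Upstream of the Sos proteins, 15 adaptors and recruiters all passed the filter, 10 with log2 fold changes below 0 and a median of -0.20, beside 53.4% and -0.03 over all genes. Only Grap passed an unadjusted p of 0.05 in limma, as did 10.2% of all genes, with 4.98, 5.39 and 4.29 FPKM in WT mice and 6.73, 8.52 and 9.21 FPKM in HrasG12V mice (log2 fold change 0.72, SE 0.18, adjusted p = 0.378). Grap encodes a Grb2-like adaptor of lymphoid cells, and unlike Rasgrp1 it was higher in mouse 2276 too. The highest log2 fold change was that of Grap2, the T cell adaptor Gads, at 3.08 (SE 1.34). It measured 0.0365 to 0.0985 FPKM in WT mice and 0.0431, 3.84 and 4.08 FPKM in HrasG12V mice, the same split as Rasgrp1. With a WT mean of 0.0592 FPKM, Grap2 passed the filter only through mice 2278 and 2279, so its rank is part of how it entered. The lowest log2 fold change was that of Frs2, the docking protein of fibroblast growth factor receptors, at -0.50 (SE 0.34). Frs2 went from 6.74 to 7.25 FPKM in WT mice to 2.81, 6.23 and 6.88 FPKM in HrasG12V mice.

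Of 24 genes that make or sense calcium and diacylglycerol signals, 20 passed the filter, with a median log2 fold change of 0.03. The classical protein kinase C gene Prkca was lowest, with 13.8, 13.0 and 17.0 FPKM in the WT mice and 6.38, 8.60 and 8.17 FPKM in HrasG12V mice. Its log2 fold change was -0.91 (SE 0.19), with a limma adjusted p of 0.318. The genes that passed the unadjusted p upward were Plcb2 and Prkcb, a phospholipase and a kinase prominent in haematopoietic cells, beside 5.18% of all genes. Their WT means were below 0.5 FPKM, so both passed the filter only through HrasG12V mice, and the calls are part of how they entered. Plcb2 was 0.0785 to 0.0843 FPKM in WT mice and 0.123, 1.60 and 1.79 FPKM in HrasG12V mice (log2 fold change 2.31, SE 0.94, adjusted p = 0.488). Prkcb was 0.318 to 0.410 FPKM in WT mice and 0.395, 4.22 and 3.14 FPKM in HrasG12V mice (log2 fold change 2.00, SE 0.81, adjusted p = 0.484). Both were again high in mice 2278 and 2279, and for Prkcb mouse 2276 lay within the WT range.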

How the data were processed

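RNA from 6 gastrocnemius muscles was made into KAPA stranded mRNA libraries and read as single ends. The authors mapped reads with TopHat and computed FPKM per gene with Cufflinks and Cuffnorm, which scales libraries to each other; per the labels the build was GRCm38 (mm10), and the sources used here give neither tool versions nor the annotation. The deposited FPKM, 1 value per symbol and library, were used as they stand. Ratios of low values between libraries clustered in part (the fullest interval of 1% width held 7.84% to 10.5% of genes in pairs of WT libraries and 1.26% to 4.04% in other pairs), and whole reads were not recovered, so the depth of each library is known only as the nominal depth in the methods, and error is known only from the spread between mice.

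Genes with a mean of at least 0.5 FPKM were kept, which left out Rasgrf1, and log2(FPKM + 0.1) was compared in limma 3.58.1 (R 4.3.3) with an abundance trend, no covariate and Benjamini-Hochberg adjustment over 13359 genes. Code was tested on simulated data. The members, marker and pathway lists and alternatives were chosen with earlier results of these data known. Named genes are the 8 members, the highest and lowest of each pathway list, pathway list genes with an unadjusted p below 0.05, and the 3 genes most like each member in profile. Single marker genes of muscle, T cells, platelets and endothelium were chosen after their values were seen. Promoters came from RefSeq (GRCm38.p6) and gene positions from GENCODE vM21. Tables used Python 3.11.15 with numpy 2.4.6 and pandas 2.3.3, and figures matplotlib 3.10.9. Alternatives were other pseudocounts (1 and 0.01), filters, scalings, moderation, weights, a lymphocyte covariate, leaving out each mouse, and mouse 2276 alone against WT.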

Additional observations from a re-analysis of the deposited data

How the results depend on the processing

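The count of genes with an unadjusted limma p below 0.05, 1358, became 712 with libraries rescaled to the same total FPKM, 3042 with array weights, 5569 with a lymphocyte covariate, 6312 with mouse 2276 alone against WT (a lone sample assumed to vary like the WT mice) and 606 to 3979 with each mouse left out. The count of exchange factors, 2, became 0 at the same total, 5 with the lymphocyte covariate, 5 with mouse 2276 alone and 0 to 4 with each mouse left out: 0 without 2277, 2281 or 2278, 1 without 2280, 3 without 2279 and 4 without 2276. The adjusted count over all genes, 8, ranged from 1 to 4200. The Rasgrp1 log2 fold change turned to -0.26 with the lymphocyte covariate and -0.13 with mouse 2276 alone. That of Rasgrp2 turned to 0.069 with array weights and ranged from -0.38 to 0.16 with single mice left out (0.16 without 2276). The median of the other CDC25-domain exchange factors, 0.10, turned to -0.055 with quantile normalization, -0.13 with a filter of 1 FPKM, -0.13 with the covariate, -0.14 with mouse 2276 alone, and ranged from -0.24 (without 2279) to 0.20 (without 2276) with single mice left out. That of the calcium and diacylglycerol genes, 0.03, became -0.22 with the covariate, -0.21 with mouse 2276 alone and -0.041 with array weights. With single mice left out it ranged from -0.041 (without 2276) to 0.055 (without 2281). That of the Sos adaptors, -0.20, became -0.11 without mouse 2281 and -0.12 without 2276. That of the Ras-family substrates, 0.07, became -0.046 without mouse 2278 and 0.010 without 2279. The Rasgrp4 value, 0.27, became 0.13 with a pseudocount of 1 and 0.082 with the covariate. The cause was not tested. With the covariate, which sets mouse 2276 in effect against WT, the log2 fold changes were -0.89 for Sos1, -1.02 for Sos2, -1.14 for Rasgrf2, -0.76 for Rasgrp2 and -0.56 for Rasgrp3. In that fit the limma adjusted p of these 5 was 0.012 to 0.048, and that of Rasgrp1 was 0.0253 with array weights. The absence of members past an adjusted p of 0.05 thus depended on the fit. Sos1, Sos2, Rasgrf2 and Rasgrp3 kept a log2 fold change below 0 in every alternative run, of which the filters and the kinds of moderation leave it as it is by construction. No paired analysis was possible because the labels give no litter and the genotypes share no replicate numbers.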

Other observations

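The CDC25 domain of the Ras exchange factors also occurs in exchange factors for the relatives Rap and Ral. Of 20 such genes 19 were listed and 17 passed the filter, 9 with a log2 fold change above 0 and a median of 0.10. Rapgef2, an exchange factor for Rap, measured 7.14, 6.36 and 6.77 FPKM in the WT mice and 2.80, 5.38 and 4.85 FPKM in HrasG12V mice (log2 fold change -0.68, SE 0.26, limma adjusted p = 0.480). Rapgef5 had the lowest log2 fold change, -1.13 (SE 0.55), with 3.21 to 3.43 FPKM in WT mice and 0.514, 2.42 and 2.38 FPKM in HrasG12V mice. For both the genotypes did not overlap and mouse 2276 was lowest, as it was for the 5 Ras exchange factors of highest WT level. Of the 17, 3 were lower in every HrasG12V mouse and 3 were higher, as were 10.4% and 8.11% of all genes. At an unadjusted limma p below 0.05, 1 was called lower (Rapgef2) and 1 higher (Ralgds), beside 4.99% and 5.18% of all genes. Ralgds, a Ral exchange factor that binds active Ras, was higher in every HrasG12V mouse, at 16.7, 12.4 and 15.1 FPKM against 9.85, 9.09 and 10.3 FPKM (log2 fold change 0.58, SE 0.17, limma adjusted p = 0.401). Rasgef1b had the highest log2 fold change of the list, 1.07 (SE 0.54), at 0.222 to 0.453 FPKM in WT mice and 0.369, 0.946 and 1.08 FPKM in HrasG12V mice, which overlapped. Its WT mean was 0.308 FPKM, and that of Rasgef1c, 1 of the 3 higher in every HrasG12V mouse, was 0.412 FPKM. Both passed the filter only through HrasG12V mice, so their differences are part of how they entered.

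All 13 Ras-family substrate genes passed the filter, and 0 had an unadjusted limma p below 0.05 in either direction, where 10.2% of all genes did, with a median log2 fold change of 0.07. Rras was highest, at 59.8, 32.5 and 27.4 FPKM in HrasG12V mice against 22.0, 26.0 and 21.4 FPKM in WT mice (log2 fold change 0.70, SE 0.31). Hras itself, whose FPKM sums both alleles and so does not check the genotype, was lowest. It measured 36.8, 36.0 and 51.8 FPKM in the WT mice and 58.8, 28.9 and 16.0 FPKM in HrasG12V mice (log2 fold change -0.44, SE 0.47). In the FPKM as deposited, mouse 2276, whose library had the largest FPKM sum, had the highest Hras and Rras values and the lowest Sos1, Sos2, Rasgrf2, Rasgrp2 and Rasgrp3 values.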
